A study of Mus musculus with 6 samples.

Results

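Saa3, Reg3b, Reg3g and Lyz1 encode secreted proteins of innate defence, and these 4 genes were taken by name from the 2195 genes in the deposited table of colonic RNA-Seq values. All 4 were found there. The libraries came from 3 Gab1IEC-KO mice, in which Cre under the Villin promoter deletes the floxed adaptor gene Gab1 in intestinal epithelial cells, and from 3 littermate Gab1fl/fl mice labelled WT, which carry the same floxed alleles. Mice of both groups were 8 to 10 weeks old and had drunk 3% dextran sulfate sodium (DSS), a detergent that injures the colonic epithelium, for 7 days. RNA was taken from the whole flushed colon, so each library mixes epithelium with immune and stromal cells, and fewer cells of a type cannot be told apart from less RNA per cell. The comparison asks how the colon of mice without epithelial Gab1 differs from that of their littermates during colitis.

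Reg3b and Reg3g are C-type lectins that intestinal epithelial cells release into the mucus. REG3G binds the peptidoglycan of Gram-positive bacteria, and REG3B is known mostly for defence against Gram-negative ones. In mice both are induced by IL-22 signalling through STAT3. Saa3 is a serum amyloid A protein made outside the liver by macrophages, epithelium and fat cells during inflammation, and C/EBP and NF-kB factors are known to act on serum amyloid A promoters. Lyz1 is the lysozyme of Paneth cells, an enzyme that cuts bacterial cell walls. Paneth cells belong to the crypts of the small intestine and are not normally found in the mouse colon.

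The sequences just upstream of the 4 genes are shown as a description. They were taken from RefSeq on GRCm38.p6, which held an entry for all 4, and run 5′ to 3′ on the strand of the gene. Positions count back from the RefSeq start site. Each was cut to bases that lie in no annotated exon, so that Saa3 spans positions -250 to -25 (chr7:46715701-46715926, minus strand), Reg3b -178 to -25 (chr6:78370707-78370860, plus strand), Reg3g -250 to -1 (chr6:78468875-78469124, minus strand) and Lyz1 -250 to -1 (chr10:117292869-117293118, minus strand). Capitals mark complete matches to 4 searched motifs.
Saa3: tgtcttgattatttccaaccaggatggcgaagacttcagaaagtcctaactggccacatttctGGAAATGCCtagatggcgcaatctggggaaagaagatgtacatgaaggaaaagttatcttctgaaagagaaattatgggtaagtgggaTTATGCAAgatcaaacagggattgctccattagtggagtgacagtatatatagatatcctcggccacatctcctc
Reg3b: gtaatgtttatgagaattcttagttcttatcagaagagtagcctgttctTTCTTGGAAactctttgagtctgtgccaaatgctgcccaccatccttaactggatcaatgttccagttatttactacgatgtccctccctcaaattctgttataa
Reg3g: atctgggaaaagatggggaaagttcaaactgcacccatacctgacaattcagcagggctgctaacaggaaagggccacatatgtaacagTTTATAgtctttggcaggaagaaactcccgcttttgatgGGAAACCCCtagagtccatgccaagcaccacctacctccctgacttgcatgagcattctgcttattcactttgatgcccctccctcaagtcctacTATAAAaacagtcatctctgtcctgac
Lyz1: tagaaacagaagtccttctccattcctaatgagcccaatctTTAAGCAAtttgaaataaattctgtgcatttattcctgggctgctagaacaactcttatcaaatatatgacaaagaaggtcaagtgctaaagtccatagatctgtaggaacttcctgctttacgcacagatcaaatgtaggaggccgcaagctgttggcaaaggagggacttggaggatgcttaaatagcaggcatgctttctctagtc

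Both strands of the 250 bases before each start site were searched for TTNNGCAA (C/EBP), TTCNNNGAA (STAT), GGNNTTTCC (NF-kB) and TATAAA (the core promoter element bound by the basal machinery). The C/EBP letters were found in Saa3, from -99 to -92, and in Lyz1, from -209 to -202, and in 9.56% of all 32851 promoters. The STAT letters were found in Reg3b alone among the 4, from -129 to -121, and in 7.02% of all promoters. Both Reg3 genes held TATAAA close to the start, Reg3b from -29 to -24 (1 base beyond the printed stretch, hence in lower case) and Reg3g from -27 to -22, while Reg3g had another on the opposite strand from -161 to -156. TATAAA was found in 12.4% of all promoters and in neither Saa3 nor Lyz1. The NF-kB letters were found on the opposite strand in Saa3, from -187 to -179, and in Reg3g, from -122 to -114, and in 4.93% of all promoters. They had been shortened after a longer form gave no match in the 4 promoters, so these matches were not found with letters set beforehand. No match overlapped another. Over positions -178 to -25 the Reg3b and Reg3g promoters were identical at 60.9% of aligned positions, against 40.4% to 46.0% for the other 5 pairs. These matches describe letters only. Binding of the regulators was not measured, and any link to how the members varied among the libraries was not tested.

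Saa3 (ENSMUSG00000040026, chr7:46711998-46715700 on the minus strand) had normalized counts, that is reads divided by a factor for the library, of 8069, 6420 and 18711 in Gab1IEC-KO replicates 1, 2 and 3, against 1672, 352 and 259 in Gab1fl/fl replicates 1, 2 and 3. The groups did not overlap, and the lowest Gab1IEC-KO library was 3.84 times the highest Gab1fl/fl library. The spread within a group was wide, 2.91-fold from lowest to highest among Gab1IEC-KO and 6.47-fold among Gab1fl/fl libraries, where replicate 1 stood above the others. On the log2 scale of the normalized count plus 1, Saa3 was 4.21 higher in Gab1IEC-KO colons (standard error 0.71, 95% interval 2.57 to 5.85), which ranked 3 among the differences of the 2195 genes. Its p from limma was 0.000388 unadjusted and 0.504 adjusted, by Benjamini-Hochberg over 21951 protein-coding genes. DESeq2 on the reads recovered from these values gave an adjusted p of 0.000138, the lowest of a range up to 1 over the 17 alternatives.

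Reg3b (ENSMUSG00000071356, chr6:78370657-78373466 on the plus strand) had normalized counts of 36474, 21390 and 13144 in the 3 Gab1IEC-KO libraries, against 11264, 12659 and 4792 in the 3 Gab1fl/fl libraries. Every Gab1IEC-KO library lay above every Gab1fl/fl library, but only just, since Gab1IEC-KO replicate 3 was 1.04 times Gab1fl/fl replicate 2. The means were 23670 ± 11831 and 9571 ± 4197 (SD, n = 3 each), a ratio of 2.47. The log2 difference was 1.30 (standard error 0.46, 95% interval 0.23 to 2.37, adjusted p = 0.764 from limma). It was 0.93 without Gab1IEC-KO replicate 1 and 0.86 without Gab1fl/fl replicate 3.

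Reg3g (ENSMUSG00000030017, chr6:78466269-78468872 on the minus strand) had normalized counts of 9525, 8088 and 3828 in the Gab1IEC-KO libraries, against 4754, 4886 and 2017 in the Gab1fl/fl libraries. The groups overlapped: Gab1IEC-KO replicate 3 lay below Gab1fl/fl replicates 1 and 2. The means were 7147 ± 2963 and 3886 ± 1620 (SD, n = 3 each), a ratio of 1.84. The log2 difference was 0.88 (standard error 0.45), and its 95% interval of -0.15 to 1.92 included 0 (adjusted p = 1 from limma). It was 0.47 without Gab1fl/fl replicate 3 and 1.28 without Gab1IEC-KO replicate 3.

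Lyz1 (ENSMUSG00000069515, chr10:117287797-117292868 on the minus strand) went the other way, with normalized counts of 64.7, 112 and 64.8 in the Gab1IEC-KO libraries, against 219.8, 221.9 and 221.2 in the Gab1fl/fl libraries. The groups did not overlap, and the lowest Gab1fl/fl library was 1.96 times the highest Gab1IEC-KO library. The Gab1fl/fl values sat closer together than counting alone would put them, with an SD of 1.11 where the Poisson error of a single library was 14.6 to 15.0, so that their SD understates the error. The log2 difference was -1.49 (standard error 0.34, taken from a spread moderated over all genes; 95% interval -2.28 to -0.71), which ranked 136 from the lowest. The p from limma was 0.00248 unadjusted and 0.504 adjusted, while DESeq2 gave an adjusted p of 0.0180, the lowest of a range up to 1 over the 17 alternatives.

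**Figure D1:**
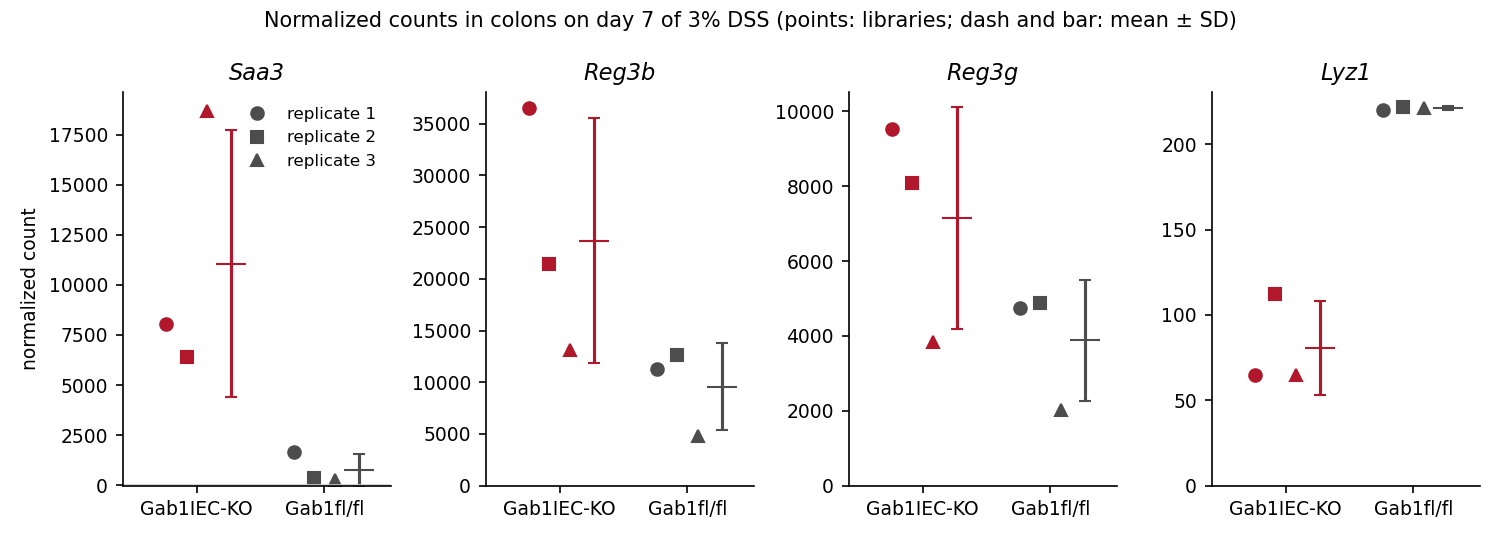
Normalized counts (y axes, linear, each gene on its own scale) of Saa3, Reg3b, Reg3g and Lyz1 in the 3 Gab1IEC-KO and 3 Gab1fl/fl libraries. Points are libraries, with a shape for each replicate number, which the labels do not say pairs mice. The dash with its bar is the mean ± SD. Saa3 in Gab1IEC-KO colons spans 6420 to 18711 and lies clear of the Gab1fl/fl libraries, Reg3g overlaps between the groups, and Lyz1 is lower in all 3 Gab1IEC-KO libraries.

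By limma, 0 of the 2195 genes passed an adjusted p under 0.05 (0% of the genes tested), with 1207 at an unadjusted p under 0.05. The count was 0 by edgeR and 103 by DESeq2. The deposited table holds only genes that passed an unadjusted p under 0.05 in the comparison that came with it, so high shares of its genes differ by any measure: 40.0% were higher and 14.9% lower at an unadjusted limma p under 0.05, 43.0% had every Gab1IEC-KO library above every Gab1fl/fl library, and 19.3% had every one below. Against these shares, Saa3 and Reg3b were 2 of 4 members higher at the unadjusted p and without overlap, and Lyz1 was 1 of 4 lower. Reg3b was past the unadjusted p no longer without Gab1IEC-KO replicate 1 or 2 or Gab1fl/fl replicate 3, where its log2 difference was 0.93, 1.31 and 0.86, nor under TMM or median-ratio factors. Reg3g passed it without Gab1IEC-KO replicate 3 (1.28) and with a block for the replicate number (0.88). No test here is independent of how the table was made. By size, Reg3b ranked 454 and Reg3g 949 from the highest, where Saa3 ranked 3, and the median log2 difference over all listed genes was 0.79.

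The size of each difference depends on how libraries are scaled. TMM and median-ratio factors assume that most genes do not differ, whereas the listed genes were all chosen for a difference. Among them 1536 had a higher Gab1IEC-KO mean and 659 a lower one, so factors computed on them draw the median towards 0. The values below therefore cannot say which sizes or directions are right. With TMM factors computed on the listed genes, the median difference over all of them was 0.21 in place of 0.79, and 286 genes were higher and 644 lower at the unadjusted p, against 879 higher and 328 lower as deposited. Under those factors Reg3b was 0.72 and Reg3g 0.30 higher, Saa3 3.63 higher and Lyz1 2.07 lower (log2 difference -2.07). With median-ratio factors the median was 0.13, with 251 genes higher and 646 lower, and Reg3b and Reg3g were 0.64 and 0.23 higher. The directions of the 4 members held under each scaling.

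The 4 members did not order the libraries in the same way. Gab1IEC-KO replicate 3 had the highest Saa3 of all 6 libraries, 5.13 above the Gab1fl/fl mean on the log2 scale, yet the lowest Reg3b and Reg3g of its group, at 0.58 and 0.09 above that mean. Gab1IEC-KO replicate 1 had the highest Reg3b and Reg3g, 2.05 and 1.40 above the Gab1fl/fl mean. For Lyz1 the same 2 libraries were level, both at -1.76, and replicate 2 was at -0.97. Among Gab1fl/fl libraries, replicate 1 stood out for Saa3 (1.64 above the mean) but not for Reg3b (0.35) or Reg3g (0.40), and replicate 3 was lowest for all but Lyz1. Gab1IEC-KO replicate 3 also had the highest value of its group in 951 of the 1536 genes with a higher Gab1IEC-KO mean, and Gab1fl/fl replicate 1 the highest of its group in 1258.

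**Figure D2:**
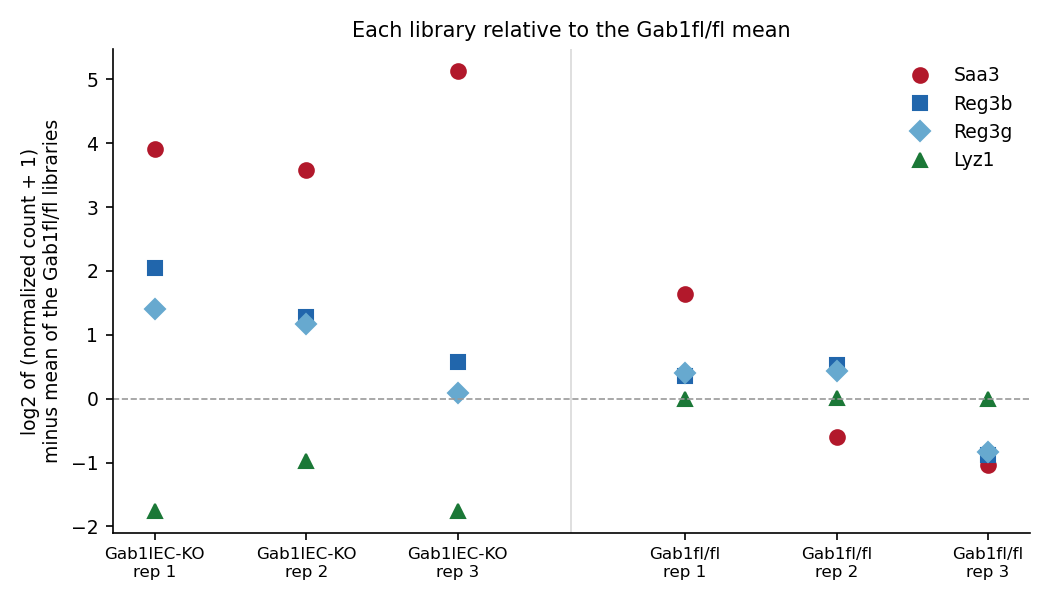
Log2 of the normalized count plus 1 of each member in each library, minus the mean of the 3 Gab1fl/fl libraries (y axis, log2 units; the dashed line is that mean); each point is 1 gene in 1 library. Saa3 is highest in Gab1IEC-KO replicate 3, at 5.13, where Reg3g lies at 0.09, and Lyz1 lies between -1.76 and -0.97 in the Gab1IEC-KO libraries.

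A ratio of a pair of members within a library cancels the scaling of that library, apart from the pseudocount, so the 6 pairs were compared. Each ratio was taken after 1 was added to both normalized counts. The Saa3/Reg3b ratio was 0.221, 0.300 and 1.42 in the Gab1IEC-KO libraries, against 0.148, 0.0279 and 0.0542 in the Gab1fl/fl libraries. Saa3 was thus the smaller count in every library but Gab1IEC-KO replicate 3. The Reg3b/Lyz1 ratio was 555, 189 and 199.9 in the Gab1IEC-KO libraries, against 51.0, 56.8 and 21.6 in the Gab1fl/fl libraries, and the Reg3g/Lyz1 ratio was 145, 71.4 and 58.2, against 21.5, 21.9 and 9.08. Reg3g and Lyz1 therefore separated the groups as a ratio although Reg3g alone did not, while Lyz1 alone did.

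The Reg3b/Reg3g ratio was the steadiest, 3.83, 2.64 and 3.43 in Gab1IEC-KO libraries, against 2.37, 2.59 and 2.38 in Gab1fl/fl libraries, with a log2 difference of 0.42. It too was higher in 3 of 3 Gab1IEC-KO libraries, with 2.64 against 2.59 at the closest. The log2 differences of the other pairs were 2.38 (Reg3g/Lyz1), 2.80 (Reg3b/Lyz1), 2.91 (Saa3/Reg3b), 3.32 (Saa3/Reg3g) and 5.70 (Saa3/Lyz1). In all 6 pairs the groups did not overlap, and the exact two-sided permutation p was 0.1 in each, also after adjustment over the 6 pairs, which is the smallest that 3 libraries against 3 can give. No pair can pass a threshold of 0.05 in this design. For Saa3/Lyz1 and Reg3b/Lyz1 the separation was fixed in advance, since each of these genes alone separated the groups, Lyz1 in the opposite direction. Among single listed genes 43.0% were higher and 19.3% lower without overlap. How often pairs of other listed genes separate the groups was not tested, so the ratios only describe the members.

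**Figure D3:**
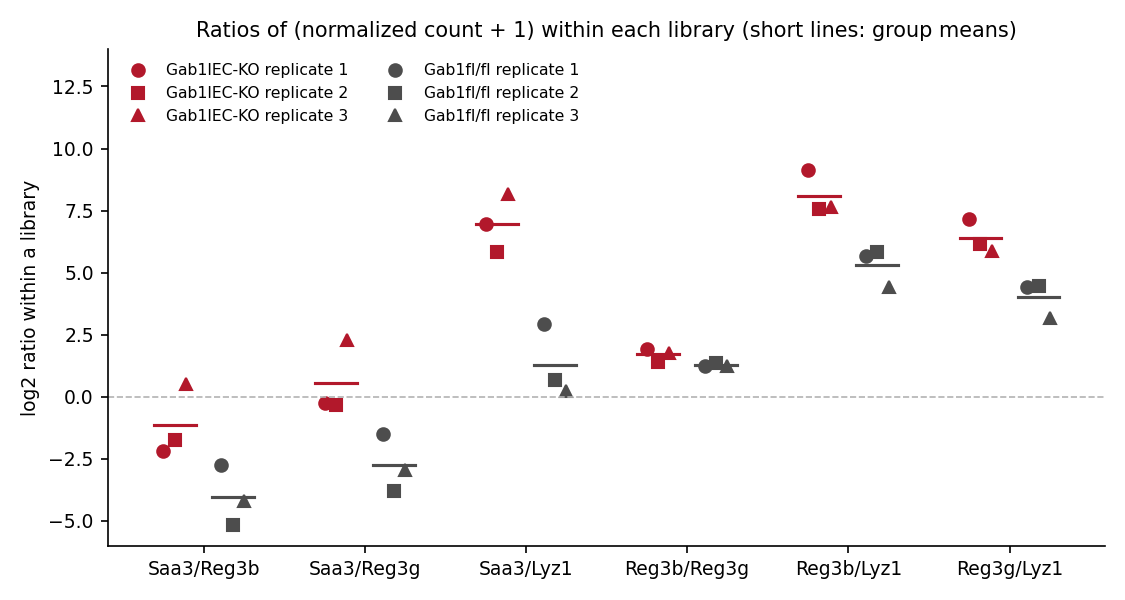
Log2 ratio of a pair of members within each library, with 1 added to both normalized counts (y axis), for the 6 pairs; points are libraries, Gab1IEC-KO left of Gab1fl/fl in each pair, and short lines are group means. The groups are separate in all 6 pairs, by 5.70 between the means for Saa3/Lyz1 and by 0.42 for Reg3b/Reg3g.

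Levels of different genes were compared per kilobase of the gene length given in the table. In Gab1IEC-KO colons the order was Reg3b (20726 ± 10360 normalized counts per kb), Saa3 (4247 ± 2560), Reg3g (3381 ± 1402) and Lyz1 (63.8 ± 21.8; SD, n = 3 each). In Gab1fl/fl colons it was Reg3b (8381 ± 3675), Reg3g (1838 ± 766), Saa3 (292 ± 303) and Lyz1 (175 ± 0.877). On this length, Saa3 and Reg3g in Gab1IEC-KO colons, and Saa3 and Lyz1 in Gab1fl/fl colons, did not differ beyond their spread. The listed length of Saa3, 2606 bases, exceeds the 555 bases of its transcript Saa3-201, and levels were therefore also taken per kilobase of transcript. The order of the group means was the same. Saa3 was at 14538, 11567 and 33713 normalized counts per kb of Saa3-201 in the 3 Gab1IEC-KO libraries, where Reg3b was at 46583, 27318 and 16787 per kb of Reg3b-201. Saa3 was thus below Reg3b in replicates 1 and 2 and above it in replicate 3. It was above Reg3g in all 3, where Reg3g was at 12355, 10490 and 4965 per kb of Reg3g-201. In the 3 Gab1fl/fl libraries Saa3 was at 3012, 635 and 466, above Lyz1 at 174, 176 and 175 per kb of Lyz1-201.

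Neighbouring and similar genes limit how exactly reads are assigned. Reg3b and Reg3g lie 92.8 kb apart on chromosome 6, and their coding sequences were 76.0% identical, with a longest shared run of 35 bases. Lyz1 lies 5.475 kb from Lyz2, the lysozyme of macrophages and other myeloid cells, with 95.0% identity and a shared run of 118 bases, so reads could be split between them and the Lyz1 level is uncertain. Lyz2 was not among the listed genes and has no value here. Saa3 shared 75.7% with Saa1 and 74.7% with Saa2, both unlisted, with runs of 58 and 41 bases. The counting was not stated to use strand.

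Of 8 other lysozyme and lysozyme-like genes, Lalba among them, 0 were listed. A further list of regenerating and C-type lectin genes held 8, among them Reg1, Reg2, Reg4, Clec7a and Extl3, and 0 were listed. Of 12 other acute phase genes the table held 4, each higher in Gab1IEC-KO colons at an unadjusted p under 0.05 (40.0% of all listed genes) and without overlap (43.0%), with a median log2 difference of 1.67, against 0.79 over all listed genes. Haptoglobin (Hp), which binds free haemoglobin, had normalized counts of 1320, 1113 and 2187 in the Gab1IEC-KO libraries, against 673, 131 and 35.4 in the Gab1fl/fl libraries (log2 difference 3.32). Saa4, the neighbour of Saa3 at 12.3 kb, was low, at 17.0, 21.5 and 28.3 against 9.03, 8.14 and 2.87 (log2 difference 1.69). The copper-carrying ferroxidase Cp and complement component C3 were 1.65 and 0.86 higher. Like Saa3, Hp and Cp were highest in Gab1IEC-KO replicate 3 and, among Gab1fl/fl libraries, in replicate 1. So were many listed genes in each group, 951 and 1258 of the 1536 with a higher Gab1IEC-KO mean.

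Of 8 genes for serum amyloid A receptors 3 were listed, each higher at the unadjusted p, against 40.0% of all listed genes. Their median log2 difference was 2.19, against 0.79 over all listed genes. The formyl peptide receptors Fpr1 and Fpr2, which also stand in the neutrophil list below, were 2.72 and 2.19 higher on the log2 scale, and the lysosomal membrane protein Scarb2 was 0.88 higher. Neither Tlr2 nor Tlr4 was listed.

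Of 48 other antimicrobial genes 12 were listed, and 5 were higher and 4 lower at the unadjusted p, with a median log2 difference of 0.37. The share that was higher was near the 40.0% of all listed genes, of which 14.9% were lower and whose median was 0.79. Lcn2, which withholds iron siderophores from bacteria, had 1606, 1427 and 3603 normalized counts in Gab1IEC-KO libraries, against 592, 253 and 264 in Gab1fl/fl libraries (log2 difference 2.57). Mptx1, a mucosal pentraxin, was lower by a wide margin, at 26.5, 303 and 306, against 4037, 17088 and 30420 (log2 difference -6.55). Duox2, the epithelial oxidase that makes hydrogen peroxide, and its maturation factor Duoxa2 were lower by a log2 difference of -0.49 and -0.47, with no overlap in either. Sprr2a1 and Sprr2a3 had log2 differences of -0.94 and -0.62, and their near-identical copies make each value uncertain. Saa3 thus had the direction of Lcn2, and Lyz1 that of Mptx1 and Duox2. Chosen after their values were seen, the calprotectin subunits S100a8 and S100a9 had log2 differences of 1.21 and 2.56, and S100a8 overlapped between the groups.

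Of 28 cytokine and receptor genes that act upstream of Reg3 and Saa genes, 12 were listed, 10 higher and 1 lower at the unadjusted p, against 40.0% and 14.9% of all listed genes. Their median log2 difference was 1.62, against 0.79 over all listed genes. Il22, Il17a, Il23a and Il22ra1 were not among them. Il1b, an interleukin that drives acute phase genes, had 1056, 1261 and 1004 normalized counts in Gab1IEC-KO libraries, against 391, 312 and 183 in Gab1fl/fl libraries (log2 difference 1.96). Its receptor Il1r1 was 1.53 higher, the oncostatin M receptor Osmr 0.80, the leukaemia inhibitory factor receptor Lifr 0.82, and the shared signalling chain Il6st 0.67. Il6ra, the receptor of interleukin 6, had a log2 difference of 0.62 as deposited and -0.04 with median-ratio factors, so its direction depends on the scaling. The 1 gene that was lower was Il22ra2, a soluble receptor that neutralizes IL-22. It was named after its values were seen, and had 10.6, 1.02 and 21.0 normalized counts in Gab1IEC-KO libraries, against 20.1, 46.8 and 87.1 in Gab1fl/fl libraries (log2 difference -2.48), with an overlap of 1 library in each group. The 1.02 of Gab1IEC-KO replicate 2 stands for 1 read, so the size of this difference is uncertain.

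Of 22 transcription factors and signalling genes downstream of those cytokines, 6 were listed, 3 higher and 2 lower at the unadjusted p, against 40.0% and 14.9% over the whole table. Their median log2 difference of 0.58 lay below the 0.79 of all listed genes. Cebpb had 1544, 1446 and 1950 normalized counts in Gab1IEC-KO libraries, against 990, 643 and 557 in Gab1fl/fl libraries (log2 difference 1.20). The related Cebpd and the AP-1 family factor Batf were 0.67 and 0.75 higher. Nfkbiz, an NF-kB cofactor of IL-17 and IL-1 responses, was lower without overlap at 1641, 1906 and 1919, against 2084, 3001 and 2895 (log2 difference -0.53), and Cebpa had a log2 difference of -0.49. The kinase gene Pim1 had a log2 difference of 0.50 that turned to -0.08 under TMM factors. Stat3 and Socs3 were not listed.

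**Figure D4:**
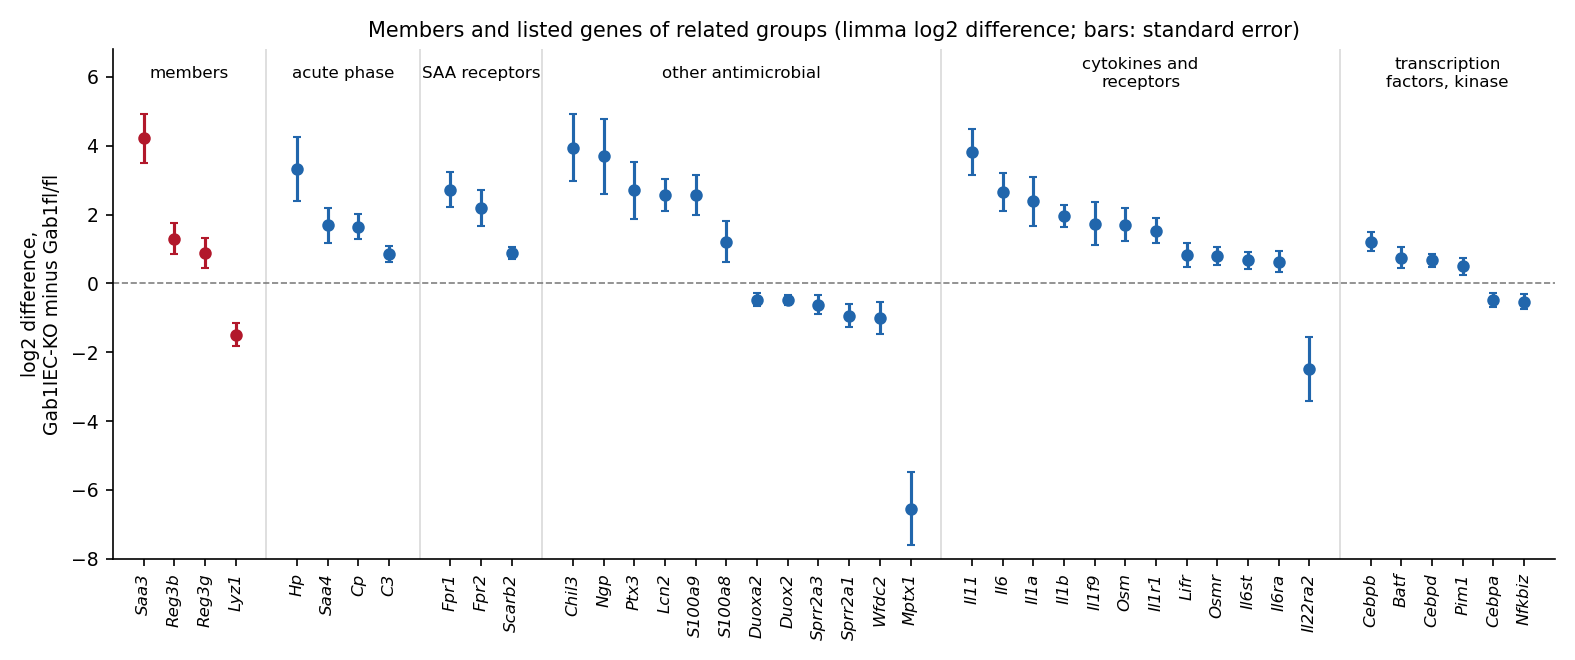
Log2 difference, Gab1IEC-KO minus Gab1fl/fl, from limma (y axis; bars are the standard error) for the 4 members and the listed genes of 5 related groups. Saa3 at 4.21 stands among the cytokines and acute phase genes with high differences, Lyz1 at -1.49 lies on the side of Duox2, Wfdc2 and Mptx1, and Il22ra2 is the 1 gene below 0 in the cytokine group.

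The genes whose levels followed each member most closely over the 6 libraries were found among 1647 listed genes with a mean level of at least 50, by Pearson r on the log2 scale. The 6 libraries fall into both groups and share their scaling, so r is a description. Saa3 was closest to Cebpb (r = 0.999, and 0.997 after the group means were removed), the insulin-like growth factor binding protein Igfbp4 (0.997) and the Wnt inhibitor Sfrp1 (0.997). Reg3b was closest to the carbonic anhydrase Car12 (0.984), the granzyme Gzma (0.981) and the interferon-induced Ifit2 (0.980), and Reg3g to Gzma (0.988), the kinase Prkg2 (0.979) and the membrane protein Mal (0.971). Lyz1 was closest to the myosin Myo5c (0.980), the phospholipase Pla2g2d (0.971) and the phosphatase Sgpp2 (0.969). Gzma, with 540, 432 and 256 normalized counts in Gab1IEC-KO libraries, against 268, 281 and 105 in Gab1fl/fl libraries, was thus near both Reg3 genes, and like Reg3g its lowest Gab1IEC-KO library lay below the higher Gab1fl/fl ones. Between members, r was 0.97 for Reg3b with Reg3g, 0.69 and 0.57 for Saa3 with them, and -0.91 for Saa3 with Lyz1. Among the 1647 genes Reg3b and Reg3g ranked 1102 and 1150 in closeness to Saa3, while each ranked 5 in closeness to the other. Saa3 and Lyz1 each separated the groups, in opposite directions, and r between members was not taken with the group means removed.

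Markers of several cell types were set beside the members. Of 15 Paneth cell markers only Lyz1 was listed, with no alpha-defensin and no Mmp7 among the listed genes. Of 14 epithelial markers 2 were listed, Aqp8 and the stem cell factor Ascl2, while Epcam, Krt8, Cdh1 and Vil1 were not. The summed level was 2040 to 4821 in Gab1IEC-KO libraries, against 3600 to 6441 in Gab1fl/fl libraries, so the groups overlapped. Nearly all of it was Aqp8, since Ascl2 lay between 0 and 44.1, and it does not measure epithelium as a whole. The goblet cell markers Clca1, Fcgbp and Spink4 (3 of 10 listed) summed to 53366 to 81795 in Gab1IEC-KO libraries, against 105610 to 165712 in Gab1fl/fl libraries. Each of the 3 was lower without overlap, as Lyz1 and 19.3% of all listed genes were.

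Neutrophil markers, of which 12 of 19 were listed and 11 were higher at the unadjusted p, against 40.0% of all listed genes, summed to 4048 to 9488 in Gab1IEC-KO libraries, against 1035 to 2433 in Gab1fl/fl libraries. The median log2 difference was 2.35 for the neutrophil list, 0.89 for the monocyte and macrophage list and 1.04 for the fibroblast list, against 0.79 over all listed genes. The neutrophil sum was highest in Gab1IEC-KO replicate 3 and Gab1fl/fl replicate 1, the libraries with the most Saa3 in each group. The fibroblast sum was highest in the same libraries, and the monocyte and macrophage sum in Gab1IEC-KO replicate 3 and Gab1fl/fl replicate 2. From Gab1IEC-KO replicate 1 to 2 Saa3 was lower, 8069 and 6420, as was the fibroblast sum, 59941 and 52699. The neutrophil sum was higher, 4048 and 5686, as was the monocyte and macrophage sum, 15718 and 16569. Among the 1536 genes with a higher Gab1IEC-KO mean, 951 were highest in Gab1IEC-KO replicate 3 within that group. Gab1fl/fl replicate 1 was the highest of its group in 1258. Monocyte and macrophage markers (14 of 20 listed, 11 higher) summed to 15718 to 23064, against 9260 to 11614, and fibroblast markers (12 of 12 listed, 10 higher) to 52699 to 94278, against 26090 to 40518. Under TMM and median-ratio factors the macrophage marker Csf1r and the fibroblast marker Thy1 turned below 0, as did Vim under median-ratio factors. Fpr1, Fpr2, Lcn2, S100a8, S100a9 and Ngp stand in both the neutrophil and the defence lists. Among lymphocyte markers 3 of 9 for B and plasma cells and 2 of 10 for T and innate lymphoid cells were listed, and 0 of 7 for the pancreas. The B cell markers Ms4a1 and Fcer2a had log2 differences of -1.52 and -1.64. Both were lower without overlap, as 19.3% of all listed genes were. Sdc1, Foxp3 and Il7r were 0.78, 1.20 and 0.72 higher. The part of these cell types in the values of Saa3, the Reg3 genes and Lyz1 was not tested.

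The listed genes held 1957437 to 2787670 reads in Gab1IEC-KO libraries, against 1977460 to 2204738 in Gab1fl/fl libraries. These totals cover part of each library, and sequencing depth is unknown. The members rest on 61 to 231 reads a library for Lyz1 and on 270 to 34378 for the other 3. Gab1 itself was not listed, so its loss could not be checked in these values. The labels do not say more of the mice than that they were separate samples. The limma p-values set each difference against the spread between these samples, moderated over all listed genes.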

How the data were processed

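Colon tissue of 3 Gab1IEC-KO and 3 Gab1fl/fl mice was sequenced as poly-A RNA on day 7 of 3% DSS. Reads were aligned with HISAT2 2.0.5 and counted with featureCounts 1.5.0-p3 (submitters' processing notes). The notes name the build hg18, whereas 2113 of 2195 gene coordinates equal those of GENCODE M21 on mouse GRCm38. The signal that the authors deposited for each gene is a count scaled by 1 size factor per library, with group means and gene lengths beside it. The deposited table also holds log2 fold changes, p-values and adjusted p-values of the authors' own comparison, which were not used. A second deposited sheet was not used.

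Reads were recovered from the deposited signal steps (0.912 to 1.06 per read), and 100% of values were whole within 0.01. Limma 3.58.1 (R 4.3.3), with a trend in the variance prior, was fitted to log2(value + 1) of all 2195 listed genes, with Benjamini-Hochberg adjustment over the 21951 protein-coding genes of GENCODE M21, since the number of genes compared was not used here. Its prior rests on genes chosen for their difference. Within-library ratios were compared by an exact two-sided permutation test. Alternatives were edgeR 4.0.16 and DESeq2 1.42.0 on the recovered reads, pseudocounts of 0.1 and 10, a mean level of at least 10, no trend, the replicate block, other scalings (none, TMM, median-ratio), adjustment over the listed genes alone, and leaving out each replicate. The scripts were tested on simulated data. The NF-kB letters were shortened after a longer form gave no match in the 4 promoters.

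The members and lists were chosen with earlier results of these data known. Named are the 4 members, the 3 genes closest to each in pattern (predicted genes and receptor segments left out), and from each defence or signalling list every listed gene where 6 or fewer are listed, otherwise the 6 with the highest mean level. Symbols were matched to GENCODE M21.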

Additional observations from a re-analysis of the deposited data

How the results depend on the processing

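Over the 17 alternatives, the log2 differences kept their direction in all 4 members, from 3.55 to 5.03 for Saa3, 0.64 to 1.66 for Reg3b, 0.23 to 1.28 for Reg3g and -2.15 to -1.36 for Lyz1. DESeq2 on the recovered reads put Saa3 (3.86) and Lyz1 (-1.46) past the adjusted p of 0.05, and no other alternative moved a member across it. Limma adjusted over the listed genes alone gave 0.0504 for Saa3 and for Lyz1, just above that threshold. This adjustment is lenient, since the listed genes were chosen by p. The number of listed genes past the threshold, 0 by limma, was 103 by DESeq2, 1 with the replicate block, and 0 to 2 when a replicate was left out (2 without Gab1fl/fl replicate 2); the cause was not tested. The number higher at the unadjusted p moved by over 1.5 times in 6 alternatives (251 to 1108 over all) and the number lower in 5 (143 to 646). The 6 within-library ratios kept their direction in each of their 11 alternatives, and their exact p, 0.1 at the lowest, could not pass a threshold of 0.05 in any.

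Deviations from the group means had r = 0.20, 0.30 and -0.14 between same-numbered mice, and -0.44 to 0.28 between the others. These few values cannot settle whether the numbers pair mice. The labels state no pairing, so the main fit was unpaired. The replicate block lowered the standard error from 0.46 to 0.23 for Reg3b and from 0.45 to 0.21 for Reg3g. For Saa3 it went from 0.71 to 0.62, and for Lyz1 it rose from 0.34 to 0.38. With the replicate block the adjusted p was 0.320 for Saa3, 0.338 for Reg3b, 0.444 for Reg3g and 0.444 for Lyz1, and Reg3g was past the unadjusted p of 0.05.

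Depth is unknown, and with 3 mice a group the intervals are wide, that of Saa3 the widest of the 4 members. The table's selection by p leaves the unlisted genes without a value.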
